A study of Mus musculus with 4 samples.

Results

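A set of 10 genes of cytotoxic lymphocytes, *Ifng*, *Gzma*, *Gzmb*, *Prf1*, *Nkg7*, *Klrd1*, *Ncr1*, *Il2rb*, *Eomes* and *Tbx21*, was followed in RNA of LSK cells sorted from mouse fetal liver. The genes were picked by name, with earlier results of these libraries known, and all 10 were found among the 39186 genes of the deposited table. LSK cells are the lineage-negative, Sca-1+, c-Kit+ fraction in which hematopoietic stem cells are enriched. The 2 *Pich*-WT samples came from wild type fetal livers and the 2 *Pich*-KO samples from fetal livers carrying a germline deletion at the start of the second exon of the X-linked gene of PICH, a DNA translocase of ultrafine anaphase bridges. All samples were C57BL/6, were given no treatment that the labels name, and came from E14.5 embryos according to the sorting methods. The antibodies of the lineage stain were against CD4, CD8, Gr-1, B220 and Ter119. None of these is a defining marker of NK cells or macrophages, and their binding to subsets of those cells was not examined. The sort also required Sca-1 and c-Kit.

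Natural killer (NK) cells kill infected or transformed cells without prior sensitization. They release perforin, which opens the target membrane, and granzymes, proteases that enter through it, and they secrete interferon gamma, the cytokine encoded by *Ifng*. Their development depends on IL-15 signaling through the receptor chain encoded by *Il2rb* and on the T-box factors encoded by *Tbx21* (T-bet) and *Eomes*. The same genes are used by cytotoxic T cells, and in part by other innate lymphoid cells (ILCs), and fetal liver is a site where early lymphoid progenitors arise.

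The values are normalized read counts, that is, reads on a gene divided by 1 size factor per sample. Between 14703215 and 20933919 reads fell on genes in each sample. *Ercc6l*, the gene of PICH, had 1142 and 1232 normalized counts in *Pich*-KO, against 772 and 661 in *Pich*-WT, so transcripts of the deleted allele were counted and its level cannot be used to verify the genotypes. *Pich*-WT sample 2 stood apart from the other samples by 0 reads on 4 Y-linked genes, where the others had 1607 or more, and by 699 reads on *Xist*, where they had at most 13. By these reads *Pich*-WT sample 2 came from female cells and the other samples from male cells, so sex was not balanced between the groups. Of 10 LSK markers, 4 were lower and 1 higher in *Pich*-KO by limma, the test described with the 10 genes. Among all tested genes that test called 9.60% lower and 7.58% higher. *Kit* and *Cd34* were at 2328 normalized counts or more in every sample. *Ly6a*, which encodes Sca-1, had 3586 and 2978 in *Pich*-KO, against 901 and 1061 in *Pich*-WT. The 4 that were lower, named after their values were seen, were the stem cell genes *Procr*, *Hlf*, *Mecom* and *Slamf1*, with log2 fold changes of −2.88, −2.37, −2.10 and −0.90. Macrophage genes, which LSK cells should lack, were present in *Pich*-WT, with 3625 and 3540 normalized counts of the complement gene *C1qa* against 73.1 and 68.2 in *Pich*-KO. *Ncr1* and *Klrb1c*, which mark NK cells, had at least 14 reads in every sample.

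The sequence before the start of the gene is shown for *Ifng* and for both granzyme genes, since the granzyme genes differ from each other in the values that follow. Of the 10 members, 8 matched a RefSeq promoter window on GRCm38.p6, *Klrd1* and *Il2rb* not among them. Each line gives the 250 bases before the RefSeq start, 5′ to 3′ on the strand of the gene, with matches to 4 motifs in capitals. RefSeq starts can differ from the deposited gene positions. The *Gzmb* window begins at 56262335, while the deposited gene, on the minus strand, ends at 56262260. The *Nkg7* window runs to 43437137, past the deposited gene start of 43437073. The motifs, searched on both strands, were the GAS element of STAT factors (TTCNNNGAA), the interferon-stimulated response element (GAAA, any 2 bases, GAAA), a T-box half-site (GGTGTGA) and a RUNX site (TGTGGT), and no matches overlapped in these windows.
*Ifng* promoter, chr10:118440796-118441045, plus strand: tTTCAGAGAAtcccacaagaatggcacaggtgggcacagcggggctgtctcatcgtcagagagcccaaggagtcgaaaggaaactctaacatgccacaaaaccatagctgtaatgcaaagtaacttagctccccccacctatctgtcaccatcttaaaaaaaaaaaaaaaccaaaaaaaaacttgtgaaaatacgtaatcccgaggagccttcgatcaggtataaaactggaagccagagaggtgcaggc
*Gzma* promoter, chr13:113100982-113101231, minus strand: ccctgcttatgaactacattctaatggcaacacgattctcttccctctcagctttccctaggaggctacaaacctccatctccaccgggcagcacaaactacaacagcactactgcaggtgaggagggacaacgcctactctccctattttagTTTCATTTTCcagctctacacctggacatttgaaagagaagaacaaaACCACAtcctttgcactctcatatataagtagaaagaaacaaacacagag
*Gzmb* promoter, chr14:56262335-56262584, minus strand: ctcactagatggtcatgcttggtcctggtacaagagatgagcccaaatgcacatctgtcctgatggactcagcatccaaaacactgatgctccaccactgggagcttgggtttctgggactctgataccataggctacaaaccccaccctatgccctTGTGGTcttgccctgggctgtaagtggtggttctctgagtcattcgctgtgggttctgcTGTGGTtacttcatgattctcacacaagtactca
The capitals mark a GAS match for *Ifng*, a response element and a RUNX match for *Gzma*, and 2 RUNX matches for *Gzmb*. RUNX matches lay in 5 of the 8 members with a window (*Ncr1*, *Nkg7*, *Prf1*, *Gzma* and *Gzmb*), and in 14.0% of all 32851 windows. GAS matches lay in 2 members (*Ifng* and *Nkg7*) and 7.02% of all windows, response elements in 2 members (*Eomes* and *Gzma*) and 2.98%, and the T-box half-site in 1 member (*Nkg7*) and 3.33%. These matches describe letters and were not tested as binding sites.

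*Pich*-KO LSK libraries held fewer reads of most of these genes than *Pich*-WT libraries. The normalized counts of the 10 genes summed to 835 and 962 in *Pich*-KO, against 3482 and 4138 in *Pich*-WT, 4.24-fold more in *Pich*-WT. For 9 of the genes both *Pich*-KO samples lay under both *Pich*-WT samples, and *Gzmb* was the exception. Of all 32428 tested genes, 27.2% showed this pattern and 28.9% the opposite one. For the comparison, limma was fitted to log2(normalized count + 1) of all tested genes with a mean-dependent prior variance, and p-values were adjusted by Benjamini-Hochberg. In this fit 6 of the 10 were lower and 0 higher in *Pich*-KO at an adjusted p of 0.05, where 17.2% of all tested genes were called, 9.60% lower and 7.58% higher. At an unadjusted p under 0.05, 9 of the 10 were lower and 0 higher, where 15.0% of all tested genes were lower and 13.7% higher. edgeR on the recovered reads called 7 lower and 0 higher, and among the 16608 genes it tested 20.7% lower and 18.6% higher. The count of 6 was 4 without *Pich*-KO sample 1 and 0 without any of the other 3 samples, and it was also 0 when limma took 1 prior variance for every gene. Because the genes were picked with these values known, their levels and log2 fold changes are given as a description and without a p-value. Their median log2 fold change was −2.31, and that of all tested genes 0.02. Without *Pich*-WT sample 2, which stood apart, the log2 fold changes of all 10 stayed below 0, from −3.20 for *Il2rb* to −0.06 for *Gzmb*. In RNA of sorted bulk cells, fewer cells of a type and less RNA per cell cannot be told apart.

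**Figure D1:**
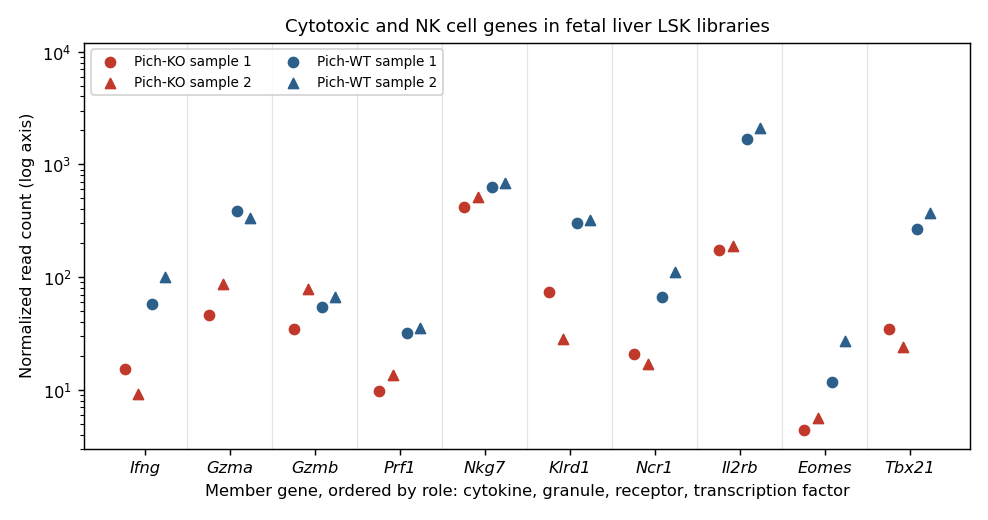
Normalized read count (log axis) of each of the 10 genes in the 2 *Pich*-KO samples (red) and the 2 *Pich*-WT samples (blue), circles for sample 1 and triangles for sample 2. The red points lie under the blue points for every gene but *Gzmb*, whose *Pich*-KO samples lie on either side of the *Pich*-WT samples.

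Marker genes of other cell types also differed between the same libraries, where limma called 9.60% of all tested genes lower and 7.58% higher. All 12 macrophage markers were lower in *Pich*-KO by limma, and their summed normalized counts were 8023 to 9149 in *Pich*-KO and 59362 to 60902 in *Pich*-WT, 7.0-fold more in *Pich*-WT. The highest of them, *Csf1r*, which encodes the receptor for the growth factor of macrophages, had 7268 and 6111 against 16306 and 17259. *Csf1r* made up most of the *Pich*-KO sums and had the smallest decrease of the list, with a log2 fold change of −1.33. In this list 1 defining marker, *Vsig4*, was at 0 in a sample, *Pich*-KO sample 2. Of 18 tested T cell markers, 5 were lower and 1 higher (limma), with a sum of 1831 to 2789 in *Pich*-KO and 2430 to 2877 in *Pich*-WT. The T cell receptor component gene *Cd3e* had 2 to 9 reads in every sample, and *Cd8a*, 1 of 2 T cell markers with 0 reads in some sample, had 0 in *Pich*-KO sample 1 and *Pich*-WT sample 1. *Ubash3a*, the highest of the list by its mean over all 4 samples, was the gene that rose, from 454 and 388 normalized counts to 1142 and 987. The 5 genes that fell, named after their values were seen, were *Cd4*, *Zap70*, *Cd3g*, *Trbc1* and *Lat*, by 1.28 to 2.50 on the log2 scale, and *Cd3g* fell from 152 and 185 normalized counts to 39.3 and 36.4. *Lck* and *Trbc2*, also named after their values were seen, were not past the threshold, with 463 and 194 in *Pich*-KO against 481 and 601 for *Lck*, and 393 and 96.6 against 340 and 511 for *Trbc2*. The part of macrophages and of T cells in the levels of the 10 genes was not tested.

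**Figure D2:**
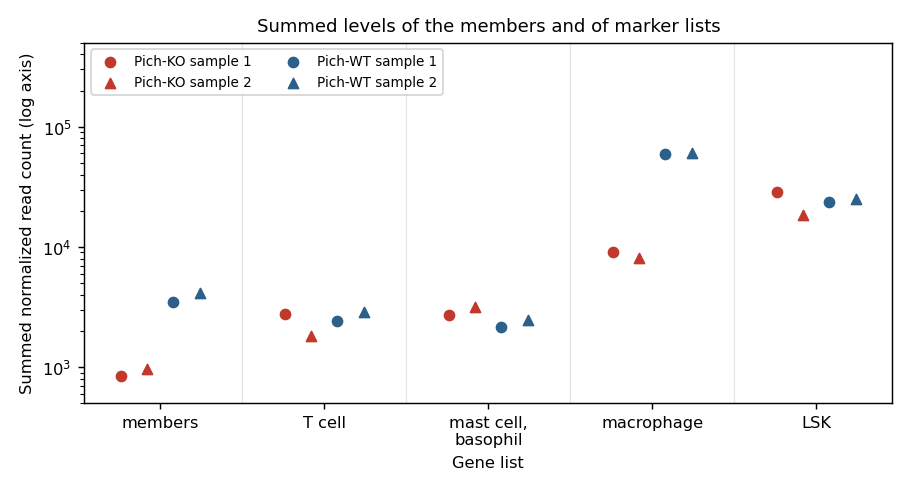
Summed normalized read count (log axis) of the 10 genes and of the T cell, mast cell and basophil, macrophage and LSK marker lists, 1 point per sample, in red for *Pich*-KO and blue for *Pich*-WT. The 10 genes sum to 835 and 962 in *Pich*-KO and to 3482 and 4138 in *Pich*-WT, and the macrophage markers to 8023 to 9149 and to 59362 to 60902.

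*Ifng* (ENSMUSG00000055170, chromosome 10, 118441046 to 118445892 on GRCm38) had 15.3 and 9.09 normalized counts in *Pich*-KO samples 1 and 2 and 57.8 and 101 in *Pich*-WT samples 1 and 2. These rest on 14 and 8 reads against 74 and 101, and the groups did not overlap. The *Pich*-KO mean was 12.2 ± 4.37 (SD, n = 2) and the *Pich*-WT mean 79.4 ± 30.5 (SD, n = 2). Their difference in log2 was −2.60, with a standard error of 0.45. The *Pich*-WT samples differed between themselves more than the *Pich*-KO samples did, and *Pich*-WT sample 2 held the higher value. Without *Pich*-WT sample 2 the log2 fold change was −2.20, and over the 4 fits that leave out 1 sample it ran from −2.99 to −2.20. An unnamed gene model, AC153498.1, overlaps *Ifng* on the same strand, with 2.18 and 0 normalized counts in *Pich*-KO, against 6.25 and 22 in *Pich*-WT, so some reads could have been assigned to either.

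The genes whose pattern over the 4 samples was nearest that of *Ifng* were *Adgre4*, *Avil* and *Sgsm1*. Nearness was the Euclidean distance between centred log2(normalized count + 1) values, over the 16279 other genes with a mean of at least 10. *Adgre4*, an adhesion receptor of myeloid cells, was at a distance of 0.21, with 53.4 and 35.2 normalized counts in *Pich*-KO, against 236 and 394 in *Pich*-WT. *Avil*, which encodes the actin-binding protein advillin, was at 0.27, and *Sgsm1* at 0.30. Among the members themselves, *Ncr1* came nearest to *Ifng*, at rank 37, followed by *Klrd1* at rank 107, and *Gzmb* was farthest, at rank 8400.

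The 4 granule genes did not share one pattern. *Gzma* (ENSMUSG00000023132, chromosome 13, 113093825 to 113100981), which encodes the trypsin-like protease granzyme A, had 45.8 and 87.5 normalized counts in *Pich*-KO, against 389 and 336 in *Pich*-WT. The *Pich*-KO mean was 18.4% of the *Pich*-WT mean, with a log2 fold change of −2.49 (standard error 0.32). *Prf1* (ENSMUSG00000037202, chromosome 10, 61297833 to 61304680), which encodes perforin, had 9.82 and 13.6 against 32.0 and 35.0, which is 9 and 12 reads against 41 and 35. Its groups did not overlap, and its log2 fold change was −1.45 (standard error 0.43).

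*Nkg7* (ENSMUSG00000004612, chromosome 7, 43437073 to 43438249), which encodes a membrane protein of cytotoxic granules that takes part in their release, had 421 and 510 normalized counts in *Pich*-KO, against 625 and 679 in *Pich*-WT. The groups did not overlap, but the *Pich*-KO mean was 71.4% of that of *Pich*-WT, with a log2 fold change of −0.49 (standard error 0.16). *Gzmb* (ENSMUSG00000015437, chromosome 14, 56258838 to 56262260), which encodes the aspartate-cleaving protease granzyme B, had 34.9 and 78.4 against 54.7 and 66.0. Here *Pich*-KO sample 1 was the lowest and *Pich*-KO sample 2 the highest of the 4 samples. Its log2 fold change was −0.19 (standard error 0.42), and it was 0.38 without *Pich*-KO sample 1 and −0.77 without *Pich*-KO sample 2. The ratio of *Gzma* to *Gzmb* normalized counts was 1.31 and 1.12 in *Pich*-KO, against 7.11 and 5.09 in *Pich*-WT.

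Of the *Pich*-KO samples, sample 2 held the higher value for all 4 granule genes. *Gzmb* is also made by mast cells, and marker genes of mast cells and basophils are given beside it. Of 13 tested mast cell and basophil markers, 3 were higher and 1 lower in *Pich*-KO (limma), where 7.58% of all tested genes were higher and 9.60% lower. The normalized counts of all 13 summed to 2731 and 3148 in *Pich*-KO and to 2151 and 2462 in *Pich*-WT. *Cpa3*, the mast cell carboxypeptidase, rose from 134 and 96.0 normalized counts to 498 and 437, 2.03 on the log2 scale (standard error 0.23, adjusted p = 0.000727, limma). The basophil protease genes *Mcpt8* and *Prss34*, named after their values were seen, were also uneven between the *Pich*-KO samples. *Mcpt8* had 8.73 and 94.3 normalized counts in *Pich*-KO samples 1 and 2 against 13.3 and 10 in *Pich*-WT, and *Prss34* had 4.36 and 172 against 15.63 and 17.0. Neither was past the threshold. Other markers of the list did not share 1 order between the *Pich*-KO samples. *Ms4a2* and *Hdc*, also called higher by limma, had 53.4 and 103, and 719 and 1152, in *Pich*-KO samples 1 and 2. *Il1rl1* had 151 and 148, and *Cpa3* and *Gata2* were lower in *Pich*-KO sample 2. These, too, were compared after their values were seen. Of the 13 markers, 5 had 0 reads in some sample, among them the chymase gene *Cma1* in *Pich*-KO sample 2 and *Pich*-WT sample 2. *Gata2*, the highest of the list and also a factor of stem cells, was the gene that fell, from 1597 and 1852 to 1287 and 1030. It made up most of the *Pich*-WT sums, so the sums of the list do not show the change of its other markers. The part of mast cells and basophils in the level of *Gzmb* was not tested.

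The 3 receptor genes were all lower in level in *Pich*-KO. *Il2rb* (ENSMUSG00000068227, chromosome 15, 78479256 to 78495271), the signaling chain shared by the receptors for IL-2 and IL-15, had 176 and 188 normalized counts in *Pich*-KO, against 1676 and 2088 in *Pich*-WT. The *Pich*-WT mean was 10.4-fold that of *Pich*-KO. The log2 fold change was −3.36 (standard error 0.16), and it ran from −3.52 to −3.20 when 1 sample was left out. *Klrd1* (ENSMUSG00000030165, chromosome 6, 129591782 to 129598775) encodes CD94, the partner chain of the NKG2 receptors. It had 73.1 and 28.4 normalized counts against 302 and 323 (log2 fold change −2.75, standard error 0.41). The *Pich*-KO samples of *Klrd1* differed from each other more than the *Pich*-WT samples did. *Ncr1* (ENSMUSG00000062524, chromosome 7, 4337724 to 4345164) encodes NKp46, an activating receptor largely restricted to NK cells and some ILCs. It had 20.7 and 17.1 against 66.4 and 111 (log2 fold change −2.13, standard error 0.38). None of these 3 genes overlapped between the groups.

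The T-box factor genes were far apart in level. *Tbx21* (ENSMUSG00000001444, chromosome 11, 97098071 to 97115331) had 34.9 and 23.9 normalized counts in *Pich*-KO, against 267 and 372 in *Pich*-WT. The *Pich*-KO mean was 9.19% of the *Pich*-WT mean, the lowest share among the 10 genes, with a log2 fold change of −3.40 (standard error 0.30). *Eomes* (ENSMUSG00000032446, chromosome 9, 118478212 to 118486132) had 4.36 and 5.68 against 11.7 and 27.0, which is 4 and 5 reads against 15 and 27. Its groups did not overlap, and its log2 fold change was −1.66 (standard error 0.60), or −1.09 without *Pich*-WT sample 2.

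The order of the 10 genes by level differed between the groups. Per kilobase of gene length as the table gives it, *Nkg7* was highest in *Pich*-WT at 713 ± 41.6 normalized counts per kb (SD, n = 2), followed by *Il2rb* at 439 ± 67.9, *Gzma* at 360 ± 37.4, *Klrd1* at 244 ± 11.8 and *Tbx21* at 128 ± 29.8. *Ifng* (61.3 ± 23.6), *Ncr1* (57.6 ± 20.5) and *Gzmb* (42.0 ± 5.56) came next, and among these genes the samples of neighbours in this order overlapped. *Prf1* at 13.0 ± 0.81 and *Eomes* at 4.66 ± 2.60 were the lowest. In *Pich*-KO *Nkg7* was again first, at 510 ± 69.2 per kb, ahead of *Gzma* at 66.3 ± 29.3. The lower *Gzma* sample, at 45.5, lay under the higher samples of *Klrd1*, at 57.0, and *Gzmb*, at 54.6. *Il2rb* (42.4 ± 1.97), *Klrd1* (39.6 ± 24.7) and *Gzmb* (39.5 ± 21.4) followed with overlapping samples, so *Gzmb* was at rank 5 in *Pich*-KO and at rank 8 in *Pich*-WT. *Ncr1*, *Tbx21* and *Ifng*, at 12.3 ± 1.69, 11.8 ± 3.14 and 9.41 ± 3.37, overlapped with each other, but not with *Gzmb* above them or *Prf1* below.

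**Figure D3:**
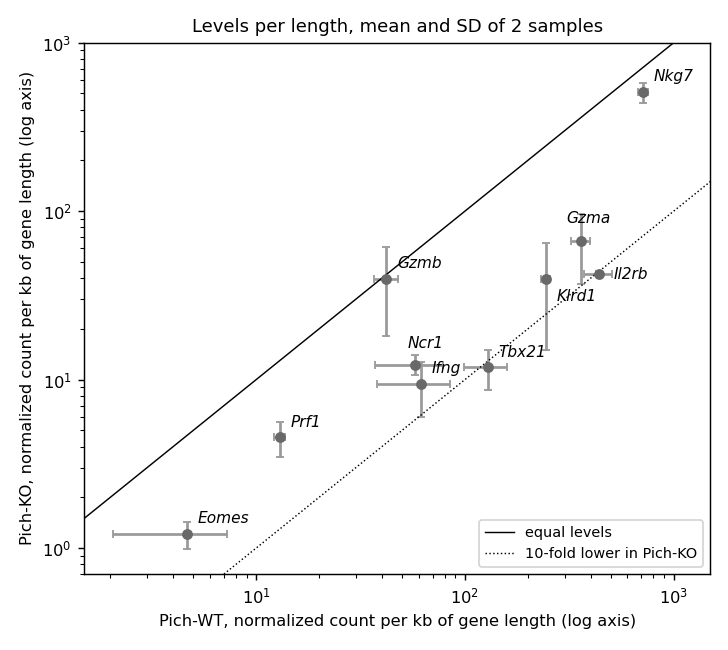
Level of each gene per kilobase of gene length in *Pich*-WT (x axis) and *Pich*-KO (y axis), both on log axes, as the mean of 2 samples with SD bars. *Gzmb* (42.0 and 39.5) lies at the line of equal levels, *Nkg7* (713 and 510) just under it, and *Il2rb* and *Tbx21* near the dotted line of a 10-fold lower level in *Pich*-KO.

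The make-up of the set also differed between the groups. *Nkg7* held 50.4% and 53.1% of the summed normalized counts of the 10 genes in *Pich*-KO, against 17.95% and 16.4% in *Pich*-WT. *Il2rb* held 21.0% and 19.5% in *Pich*-KO, against 48.1% and 50.5% in *Pich*-WT. Within the *Pich*-WT group 9 of the 10 genes were higher in sample 2 than in sample 1, *Gzma* being the exception.

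Genes of the same pathway outside the 10 were examined through lists written from general knowledge, with earlier results of these data known. Their adjusted p-values are therefore a description and no independent support for the values of the 10. Counts for the lists are by limma at an adjusted p of 0.05, which called 9.60% of all tested genes lower and 7.58% higher. Each list is described beside all genes, whose median log2 fold change was 0.02. With 2 samples against 2, the smallest p of an exact two-sided permutation test is 0.333, and the calls depend on how limma pools variance over genes. Like those of the 10, they were all lost with 1 prior variance for every gene and without *Pich*-KO sample 2, *Pich*-WT sample 1 or *Pich*-WT sample 2.

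**Figure D4:**
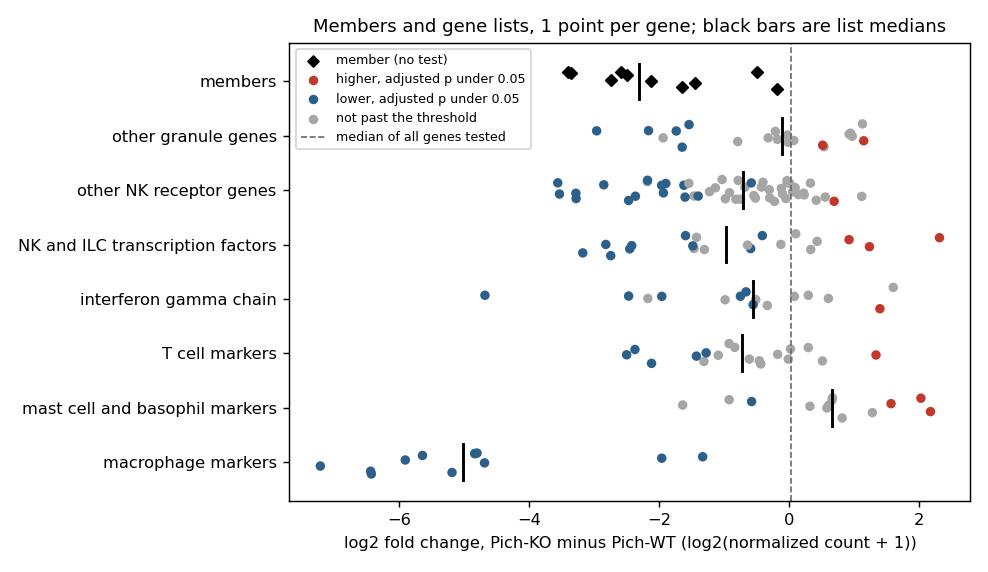
Log2 fold change (*Pich*-KO minus *Pich*-WT) of the 10 genes (black diamonds) and of the genes of 7 lists, 1 point per gene with random vertical spread, red where higher and blue where lower at an adjusted p of 0.05 by limma. Black bars mark the list medians, −2.31 for the 10 genes, −0.72 for the other NK receptor genes and −5.02 for the macrophage markers, and the dashed line marks the median of all genes, 0.02.

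Of the other NK receptor genes, 50 were tested, 15 were lower and 1 was higher in *Pich*-KO, with a median log2 fold change of −0.72. The largest decreases were in *Cd7*, an early lymphoid surface antigen, and *Klrb1b*, an inhibitory lectin-like receptor of NK cells. *Cd7* fell from 388 and 431 normalized counts in *Pich*-WT to 52.4 and 21.6 in *Pich*-KO (log2 fold change −3.56, standard error 0.39, adjusted p = 0.000657, limma). *Klrb1b* fell from 186 and 267 to 19.6 and 17.1 (log2 fold change −3.54, standard error 0.31, adjusted p = 0.000251, limma). *Klrc1*, which encodes the NKG2A chain that pairs with CD94, fell from 187 and 267 to 18.5 and 26.1 (log2 fold change −3.28, standard error 0.32, adjusted p = 0.000405, limma). It lies near *Klrd1* in the NK gene complex, on chromosome 6 from 129666015 to 129678973.

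*Klrb1c*, which encodes the NK1.1 antigen, fell from 98.5 and 107 to 15.3 and 20.5 normalized counts (log2 fold change −2.47, standard error 0.34, adjusted p = 0.00185, limma). *Klrk1*, the NKG2D gene of the same complex, had 388 and 217 in *Pich*-KO, against 474 and 459 in *Pich*-WT, and was not past the threshold (log2 fold change −0.68, standard error 0.27, adjusted p = 0.135, limma). Of the 11 *Klra* (Ly49) genes, 0 were called by limma or, among the 7 it tested, by edgeR, and 0 had an unadjusted limma p under 0.05. Their normalized counts together came to 166 and 131 in *Pich*-KO and to 160 and 168 in *Pich*-WT. The Ly49 and other *Klr* genes have close paralogs, and reads could have been split among them in the authors' counting. *Il18rap*, a chain of the IL-18 receptor, was the gene that rose, from 327 and 386 to 551 and 600 (log2 fold change 0.69, standard error 0.17, adjusted p = 0.0241, limma). The adaptor genes *Tyrobp* and *Fcer1g* showed the smallest decreases past the threshold. *Tyrobp* fell from 4561 and 4695 to 3093 and 3084 (log2 fold change −0.58, standard error 0.09, adjusted p = 0.00297, limma), and *Fcer1g* from 4039 and 3844 to 1518 and 1466 (log2 fold change −1.40, standard error 0.10, adjusted p = 0.000105, limma). *Tyrobp*, *Fcer1g*, *Fcgr3* and *Cx3cr1*, all 4 among the genes that fell, are also expressed by macrophages.

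Of 20 tested genes of the granule and killing machinery outside the 10, 5 were lower and 2 higher, with a median log2 fold change of −0.10. *Fasl*, which encodes the death ligand of cytotoxic cells, fell from 36.7 and 25.0 normalized counts to 6.54 and 1.14, or from 47 and 25 reads to 6 and 1 (log2 fold change −2.96, standard error 0.70, adjusted p = 0.0231, limma). *Ctsw*, a cathepsin of NK and cytotoxic T cells, fell from 382 and 458 to 109 and 78.4 (log2 fold change −2.17, standard error 0.24, adjusted p = 0.000661, limma). The serpin genes *Serpinb9* and *Serpinb6b* and the lysosomal membrane gene *Lamp1* were the others that fell, by 1.65, 1.74 and 1.54 on the log2 scale (limma), and were named after their values were seen. SERPINB9 inhibits granzyme B, and *Lamp1* is expressed in most cells.

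The 2 of 20 genes that rose are a share near the 7.58% of all tested genes called higher. *Lyst*, which regulates the size of lytic granules and lysosomes, rose from 146 and 147 to 306 and 347 normalized counts (log2 fold change 1.15, standard error 0.19, adjusted p = 0.00494, limma). *Rab27a*, which docks granules at the membrane, rose from 1300 and 1266 to 1872 and 1798 (log2 fold change 0.52, standard error 0.11, adjusted p = 0.0147, limma). Of 8 other granzyme genes listed, 4 had at most 3 reads in every sample, *Gzmm*, named after its values were seen, had 10 to 20, 6 were tested and 0 were called by limma or, for the 1 it tested, by edgeR, with 1 at an unadjusted limma p under 0.05. *Gzmk* had 0 and 2 reads in *Pich*-KO, against 5 and 1 in *Pich*-WT, so no difference was detectable at this depth.

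Of 20 transcription factor genes of NK and ILC development, 9 were lower and 3 higher, with a median log2 fold change of −0.97. *Tox2*, an HMG-box factor of NK cell maturation, fell from 338 and 284 normalized counts to 68.7 and 15.9 (log2 fold change −3.18, standard error 0.57, adjusted p = 0.00684, limma). *Bcl11b*, a factor of T cell and ILC2 commitment, fell from 44.5 and 62.0 to 12.0 and 3.41 (log2 fold change −2.82, standard error 0.59, adjusted p = 0.0133, limma). *Id2*, the inhibitor of E proteins that all ILCs require, fell from 6203 and 7218 to 2509 and 1953 (log2 fold change −1.60, standard error 0.14, adjusted p = 0.000234, limma). The smallest decreases past the threshold were those of *Klf2* and *Elf4*, by 0.59 and 0.41 on the log2 scale, and the other 4 genes that fell, named after their values were seen, were *Ets1*, *Ikzf3*, *Tcf7* and *Rora*.

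*Zbtb16*, which encodes PLZF, a factor of ILC precursors and NKT cells, rose from 48.5 and 71.0 to 358 and 244 normalized counts (log2 fold change 2.31, standard error 0.29, adjusted p = 0.00131, limma). *Nfil3*, which is needed for NK cell commitment, rose from 587 and 476 to 1013 and 991 (log2 fold change 0.92, standard error 0.15, adjusted p = 0.0047, limma). The other gene that rose, *Zeb2*, which acts in terminal NK maturation and in myeloid cells, rose from 1305 and 1167 to 2659 and 3179 (log2 fold change 1.24, standard error 0.13, adjusted p = 0.000533, limma). Many genes of this list, among them *Id2*, *Klf2* and *Zeb2*, are expressed outside lymphoid cells too.

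The chain from the inducers of *Ifng* to its receptor and targets was followed with a list of 15 genes, of which 6 were lower and 1 higher, with a median log2 fold change of −0.55. *Ifngr1* and *Ifngr2*, the receptor chains of interferon gamma, fell by 0.66 (standard error 0.10, adjusted p = 0.0031, limma) and 0.55 (standard error 0.15, adjusted p = 0.0406, limma) on the log2 scale. The receptor kinase gene *Jak2* fell from 1314 and 887 to 234 and 160 normalized counts (log2 fold change −2.47, standard error 0.25, adjusted p = 0.000459, limma). *Ciita*, the regulator of MHC class II genes that interferon gamma induces in many cells and that macrophages and B cells express, fell from 563 and 389 to 17.5 and 17.1 (log2 fold change −4.68, standard error 0.28, adjusted p = 5.98e-05, limma).

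*Cxcl9*, a chemokine gene induced by interferon gamma and named after its values were seen, had 15.3 and 1.14 in *Pich*-KO, against 31.3 and 21.0 in *Pich*-WT, and was not past the threshold (log2 fold change −2.18, standard error 0.90, adjusted p = 0.158, limma). Of the inducers *Il18* and *Il15*, also named after their values were seen, *Il18* fell by 1.96 on the log2 scale (standard error 0.28, adjusted p = 0.00227, limma). *Il15*, the ligand of the receptor chain encoded by *Il2rb*, had 366 and 274 normalized counts in *Pich*-KO, and its samples overlapped those of *Pich*-WT (log2 fold change −0.34, standard error 0.21, adjusted p = 0.349, limma). In all, 8 of the 15 genes were not past the threshold. Among them, named after their values were seen, *Il12a* had 765 and 508 in *Pich*-KO, against 438 and 383 in *Pich*-WT (log2 fold change 0.60, standard error 0.21). *Irf1* and *Socs1* were not lower either, with log2 fold changes of 0.08 and 0.29.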

How the data were processed

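RNA of LSK cells sorted from fetal liver was made into libraries with an unstranded kit, from 2 *Pich*-KO and 2 *Pich*-WT samples, so reads of overlapping genes cannot be told apart by strand. The labels do not say whether the samples of a group came from separate embryos. The *Pich*-WT samples differed in Y-linked and *Xist* reads, so they were not both from 1 embryo, while the spread of the *Pich*-KO samples may be technical. The table deposited by the authors holds, per gene, a signal: reads on the gene divided by 1 size factor per sample. The submitters' processing notes name Bowtie 0.12.2 and the builds mm8 and mm9. The gene starts and ends in the table are those of GENCODE M21 for 97.8% of the 39163 genes it shares, so the build printed here is GRCm38. The counter is not given in the sources used here. The table's 5 columns of group means, fold changes and p-values were not used.

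Dividing by the step between values returned whole reads for 100% of genes, within 0.01 of a read. limma 3.58.1 (R 4.3.3) was fitted on log2(value + 1) on genes whose mean value was 1 or more, with a variance trend, and adjusted p-values are Benjamini-Hochberg over all tested genes. A pseudocount understates the change of low genes. edgeR 4.0.16 and DESeq2 1.42.0 on recovered reads were alternatives, and the fits were tested on simulated data. The members and lists were chosen with earlier results of these data known. Genes named are all members, defining genes of each list, the 2 largest and 2 smallest log2 fold changes past the threshold per pathway list, the gene of PICH and the 3 genes nearest to *Ifng*. Any other gene was chosen after its values were seen. Promoters are from RefSeq. Counting noise did not account for the differences within groups: chi-square over its degrees of freedom was 14.7 for the *Pich*-KO pair and 8.18 for the *Pich*-WT pair. A list gene, *Mcpt4*, was not analysed here. The values of another list gene are not reported here.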

Additional observations from a re-analysis of the deposited data

How the results depend on the processing

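The log2 fold changes of the 10 genes took 117 values over the alternatives, of which 116 were below 0. The exception was *Gzmb* without *Pich*-KO sample 1, at 0.38. Settings that change only the filter, the variance trend or the block leave a log2 fold change as it is in the main fit. The rest reuse the same samples, so the count of 116 is no independent support. Counts past the threshold were less stable. With limma's prior variance held equal for all genes, 0 genes were higher and 0 lower, and all counts for the members and the lists were 0, although 7377 genes had an unadjusted p under 0.05. When 1 sample was left out, with a lone sample assumed to vary like the others, the genes higher ran from 0 to 548 and those lower from 0 to 1193. The members lower then ran from 0 to 4, the other granule genes from 0 to 0 higher and 0 to 3 lower, the other NK receptor genes from 0 to 0 and 0 to 7, and the transcription factors from 0 to 1 and 0 to 7. The upper ends came without *Pich*-KO sample 1, and without *Pich*-KO sample 2, *Pich*-WT sample 1 or *Pich*-WT sample 2 every count was 0, with 7572, 6062 and 5716 genes at an unadjusted p under 0.05. Pseudocount 0.1 and no filter on the mean each left 6 transcription factors lower, and with DESeq2 3 other granule genes were higher. With a replicate block, 3122 genes were higher and 3874 lower, with 8 members lower and 3 other granule genes higher, but same-numbered samples shared little (r = 0.01 over 10544 genes), so the block stands for a number only. edgeR with TMM scaling called 3097 higher and 3436 lower. *Prf1* rests on 9 to 41, *Eomes* on 4 to 27 and *Ifng* on 8 to 101 reads per sample, which limits the precision of their fold changes, and with 2 samples a group no single value can pass an exact test.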
